A study of Mus musculus with 6 samples.

Results

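Forkhead and SOX transcription factors were followed in cultured mouse cerebellar granule neurons (CGNs), the small glutamatergic neurons of the cerebellum, given the solvent DMSO or GSK-126. The set held every gene whose symbol is Fox, a letter from a to s and a number, or Sox and a number. It had 63 members, 44 Forkhead and 19 Sox genes, among the 55341 genes of the count tables, and the rule reads only the symbol. GSK-126 inhibits EZH2, the enzyme of Polycomb repressive complex 2 that trimethylates lysine 27 of histone H3 (H3K27me3).

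The groups were CGNs with DMSO and CGNs with GSK-126, each with 3 libraries numbered 1 to 3. The labels place both groups at DIV3 (day in vitro 3) and give cerebellum as the tissue, and the study describes GSK-126 added to CGN cultures at DIV3 with RNA taken at DIV5. The GSK-126 dose of these cultures is not given in the sources used here. The cultures shared their origin from early postnatal CD1-IGS mice, with the cerebella of litters pooled for each replicate, a Percoll gradient to enrich granule neuron progenitors and cytosine arabinoside (AraC) against dividing non-neuronal cells. Counts on genes ranged from 7407189 to 13092763 per library.

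Forkhead proteins bind DNA through a winged-helix domain, and FOXO proteins among them leave the nucleus when AKT phosphorylates them downstream of insulin and growth factor receptors. SOX proteins bind the minor groove through an HMG box and bend the DNA. In the nervous system SOXB1 proteins maintain progenitors, SOXC proteins act in newly born neurons and SOXE proteins specify glia. Many developmental Fox and Sox genes have promoters rich in CpG sites that carry H3K27me3 in tissues where the gene is off.

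Sequences of 4 promoters are shown because they span what the set holds: Foxo3, the most abundant member, Sox11, the 1 member that passed the test upwards, Sox14, a silent gene with many CpG sites, and Foxi1, a silent gene with few. Each window runs from 250 bases before to 50 bases after the RefSeq start on GRCm38.p6, 5′ to 3′ on the strand of the gene, and CpG sites are in capitals. The windows are chr10:42276646-42276945 for Foxo3, chr12:27342669-27342968 for Sox11, chr9:99876121-99876420 for Sox14 and chr11:34208040-34208339 for Foxi1, all on the minus strand.
Foxo3: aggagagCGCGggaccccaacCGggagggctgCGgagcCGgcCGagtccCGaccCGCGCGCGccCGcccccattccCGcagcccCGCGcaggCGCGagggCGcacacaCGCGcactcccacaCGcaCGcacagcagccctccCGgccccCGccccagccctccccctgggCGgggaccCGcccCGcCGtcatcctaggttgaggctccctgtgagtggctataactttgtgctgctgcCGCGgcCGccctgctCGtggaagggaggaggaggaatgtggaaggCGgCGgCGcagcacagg
Sox11: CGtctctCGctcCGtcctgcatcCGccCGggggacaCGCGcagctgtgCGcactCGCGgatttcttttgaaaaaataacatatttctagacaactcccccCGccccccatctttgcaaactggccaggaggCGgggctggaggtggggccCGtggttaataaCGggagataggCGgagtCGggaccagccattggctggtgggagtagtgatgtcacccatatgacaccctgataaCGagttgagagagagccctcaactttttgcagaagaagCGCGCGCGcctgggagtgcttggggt
Sox14: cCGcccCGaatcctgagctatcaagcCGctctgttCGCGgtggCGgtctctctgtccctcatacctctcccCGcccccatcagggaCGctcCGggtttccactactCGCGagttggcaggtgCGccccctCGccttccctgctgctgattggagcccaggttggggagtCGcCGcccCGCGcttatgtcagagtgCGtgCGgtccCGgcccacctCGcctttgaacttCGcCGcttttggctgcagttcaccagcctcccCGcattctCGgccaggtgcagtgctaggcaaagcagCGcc
Foxi1: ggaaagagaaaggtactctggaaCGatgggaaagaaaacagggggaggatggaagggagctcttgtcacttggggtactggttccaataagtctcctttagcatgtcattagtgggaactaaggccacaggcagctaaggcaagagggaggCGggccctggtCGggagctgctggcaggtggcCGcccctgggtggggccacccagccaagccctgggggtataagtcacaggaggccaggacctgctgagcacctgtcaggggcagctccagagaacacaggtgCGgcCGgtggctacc

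The Foxo3 window held 35 CpG sites, the Sox11 window 21, the Sox14 window 26 and the Foxi1 window 6. RefSeq gave a window for 41 of the 63 members, and the first listed window of each was used. The median was 27.0 CpG sites over the 24 members whose genes were abundant enough to test, 22.0 over the 5 with a few counts and 12 over the 12 silent members, against 7 over all 32851 windows, whose quartiles were 3 and 20. Silent members ranged from 5 to 31 sites, and 4 of the 12 had at least 20, so the Sox14 window was not the exception among them. The forkhead motif TGTTTAC, read on both strands, was in 2 of the 41 windows (4.88%) and in 3.65% of all windows. The SOX motif ACAAAG was in 9 of 41 (22.0%) and in 18.7% of all windows. A match is a description of letters in these windows and not a binding site.

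Levels are in CPM, a gene's count relative to all counts on genes of its library, scaled by TMM factors. A gene was tested if it passed edgeR's filter on low counts, which 38 members did, 25 Forkhead and 13 Sox genes. Another 13 had counts but failed the filter, and 12 had no count in any of the 6 libraries. Of the 38, 13 had a mean under 10 CPM, and over the whole set 6 members had a mean of at least 100 CPM. The summed Forkhead level was 1263 ± 69.6 CPM with DMSO and 1169 ± 39.4 with GSK-126 (mean ± SD over the 3 libraries of a group, as for all levels that follow). The summed Sox level was 555 ± 91.8 CPM with DMSO and 593 ± 99.4 with GSK-126, with wide overlap between the groups.

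**Figure D1:**
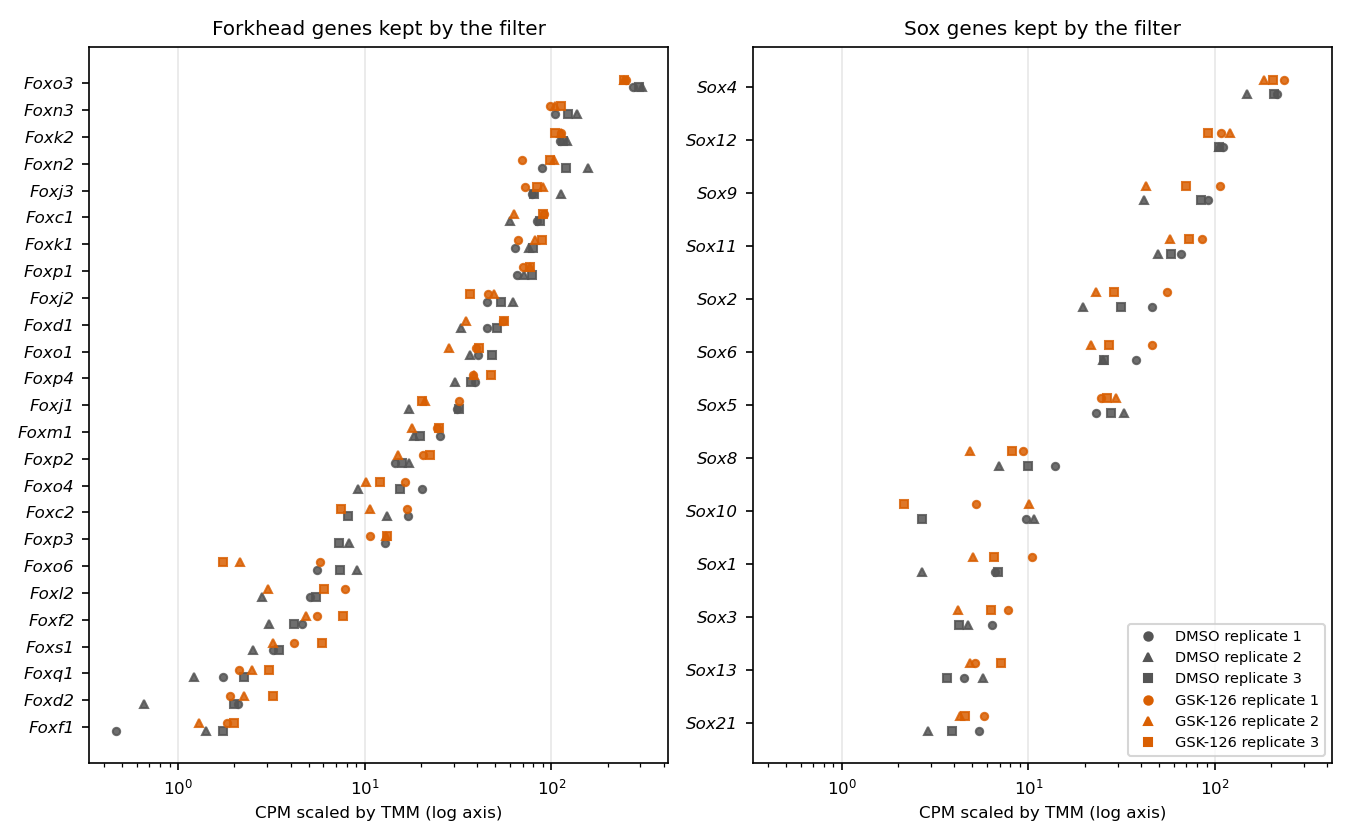
Level of each of the 38 tested Forkhead and Sox genes in each library, as CPM scaled by TMM on a log axis. Grey points are DMSO libraries, orange points GSK-126 libraries, and the symbol gives the replicate number. Levels run from 0.461 CPM for Foxf1 in DMSO replicate 1 to 306 CPM for Foxo3 in DMSO replicate 2, and the orange and grey points of most genes overlap.

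Per kilobase of annotated exon, which allows genes of different length to be compared, Sox4 and Foxo3 were highest. With DMSO the level of Sox4 was 39.7 CPM per kb, that of Foxo3 38.5, that of Sox12 23.9 and that of Foxk2 22.1. Sox4 shared 2616 of its 4795 exon bases with Gm26735 on the opposite strand, and the strand setting of the counting is not given in the sources used here, so its level is uncertain. Foxo3 shared none. In all, 20 members, 14 of them tested, shared exon bases with another gene.

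EZH2 inhibition was compared with solvent in the same 3 pairs of replicate numbers, as a block in edgeR's quasi-likelihood test over all 16729 tested genes, with Benjamini-Hochberg adjustment and a threshold of 0.05. Of the 38 tested members 4 passed: Foxn2, Foxo3 and Foxo6 fell and Sox11 rose. Members called higher were 1 of 38 (2.63%) against 3.35% of all tested genes, and members called lower were 3 of 38 (7.89%) against 5.09%, so both shares lay near the background of the whole table. Of all genes 561 were called higher and 851 lower, a split that became 727 and 698 with upper-quartile scaling. The median log2 fold change was 0.085 over the members and -0.0056 over all tested genes, and the median absolute log2 fold change was 0.22 and 0.17. Without the block, edgeR called 0 of the members and 0 of all genes, while 665 genes had an unadjusted p under 0.05 and DESeq2 without the block called 21 genes. The 3 pairs come from cultures of pooled litters. With the block, p-values measure how the difference between GSK-126 and DMSO varied among the pairs. Without it, the spread between cultures enters as well.

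**Figure D2:**
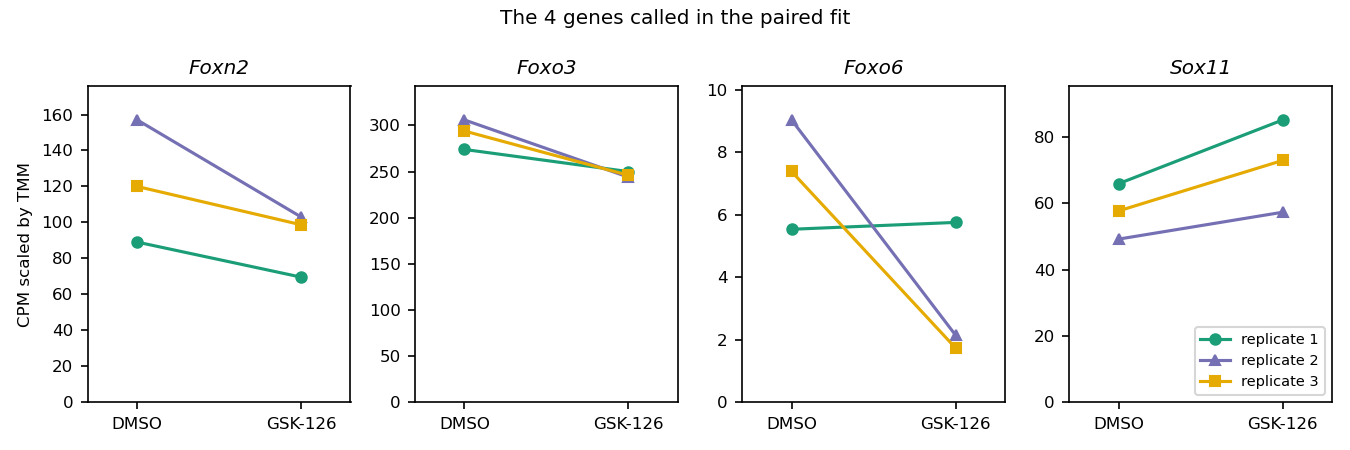
CPM of the 4 called genes in each replicate, with a line joining the DMSO and the GSK-126 library of the same number. All axes start at 0. The lines fall in 3 of 3 pairs for Foxn2 and Foxo3, fall in 2 of 3 for Foxo6 and rise in 3 of 3 for Sox11.

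Foxn2, a forkhead gene on chromosome 17 (chr17:88440711-88490533, plus strand, GRCm38), fell in all pairs. Its level was 89.1, 157 and 120 CPM in DMSO replicates 1, 2 and 3 and 69.6, 103 and 98.7 CPM in the GSK-126 replicates of the same numbers. The groups overlapped, since replicate 2 was highest in both and GSK-126 replicate 2 lay above DMSO replicate 1. The log2 fold change was -0.42 (SE 0.085, adjusted p = 0.00316), and 0.953 was its adjusted p without the block. Foxn2 was also called by DESeq2 with the block (adjusted p = 0.00452) and when any 1 of the pairs was left out. Its relative Foxn3 had 104, 138 and 122 CPM with DMSO and 98.2, 105 and 112 CPM with GSK-126. It was lower in each pair, at a log2 fold change of -0.20 (SE 0.083, adjusted p = 0.160), and was not called.

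The FOXO genes encode effectors of insulin and growth factor signalling. All 4 were tested, and the fitted log2 fold change of each was negative, also under all 11 alternative settings. Foxo3 (chr10:42181841-42276755, minus strand) had 274, 306 and 294 CPM with DMSO and 250, 244 and 246 CPM with GSK-126. It was the only tested member whose GSK-126 libraries all lay below its DMSO libraries, which held for 4.72% of all tested genes, and it was also the steadiest across replicates, with a range of 0.06 on the log2 scale. It fell by 0.24 on the log2 scale (SE 0.072, adjusted p = 0.0446). That call lay close to the threshold: it was lost with DESeq2 (adjusted p = 0.0577), with scaling by total counts (0.0799) or upper quartiles (0.0832), and when pair 1, 2 or 3 was left out (0.0904, 0.158 and 0.167).

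Foxo6, the FOXO gene best known from brain (chr4:120267079-120287349, minus strand), was a low-count gene. Its counts were 48, 97 and 85 with DMSO and 76, 20 and 13 with GSK-126, or 5.54, 9.04 and 7.39 CPM against 5.76, 2.15 and 1.74 CPM. Replicates 2 and 3 carried the whole difference and replicate 1 had none, with pair log2 ratios of 0.056, -2.02 and -2.03. The fitted log2 fold change was -1.23 (SE 0.35, adjusted p = 0.0332), the largest of any tested member. Without pair 1 it was -2.06 (adjusted p = 6.0e-06), without pair 2 it was -0.81 (adjusted p = 0.336), without pair 3 it was -0.90 (adjusted p = 0.104), so the value rests on which pairs enter. DESeq2 with the block gave -1.32 and no adjusted p.

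Foxo1 had 40.3, 36.6 and 48.2 CPM with DMSO and 39.6, 28.1 and 41.1 CPM with GSK-126 (log2 fold change -0.21, SE 0.11, adjusted p = 0.302). Foxo4 had 20.3, 9.23 and 15.4 CPM with DMSO and 16.4, 10.2 and 12 CPM with GSK-126 (-0.19, SE 0.17, adjusted p = 0.579). Neither was called, and their groups overlapped. The summed FOXO level was 355 ± 13.2 CPM in DMSO cultures and 299 ± 13.8 under GSK-126, most of it from Foxo3.

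Around the FOXO genes, a list of target genes was read from the same fit. Of 23 tested FOXO target genes 1 was called higher and 3 lower (median -0.077). Over all tested genes 3.35% were called higher and 5.09% lower (median -0.0056), which is the background for each list. Klf9, a Krüppel-like factor, fell from 348 ± 81.2 to 257 ± 61.2 CPM (adjusted p = 4.1e-04), and the sestrins Sesn1 and Sesn3 fell by 0.30 and 0.27 on the log2 scale (adjusted p = 0.0215 and 0.0326). Cdkn1a, which encodes the cell cycle inhibitor p21, rose by 0.31 on that scale (adjusted p = 0.0405). Its pair log2 ratios were 0.39, 0.54 and 0.0038, so pair 3 showed almost no rise, and the groups overlapped. With DESeq2 and the block only Klf9 was called, and the adjusted p was 0.0569 for Sesn1, 0.0577 for Sesn3 and 0.0621 for Cdkn1a. Without pair 2, edgeR called 1 of the list.

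The FOXP genes encode repressors, among them FOXP2, known for its part in vocal learning and in Purkinje cells. All 4 had positive fitted log2 fold changes, also under each alternative setting, and none was called. Foxp1 had 65.2, 71.3 and 78.8 CPM with DMSO and 70.2, 76.5 and 76.8 CPM with GSK-126 (log2 fold change 0.057, SE 0.088, adjusted p = 0.770). Foxp4 had 38.9, 30.4 and 36.9 CPM with DMSO and 38.0, 38.6 and 47.4 CPM with GSK-126 (0.22, SE 0.12, adjusted p = 0.285). Their pairs did not agree in direction.

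Foxp2 had 14.6, 17.2 and 15.9 CPM with DMSO and 20.5, 15.1 and 22.3 CPM with GSK-126, higher in pairs 1 and 3 only (log2 fold change 0.26, SE 0.16, adjusted p = 0.38). Foxp3, the regulatory T cell factor, had 12.8, 8.20 and 7.30 CPM with DMSO and 10.7, 13.0 and 13.1 CPM with GSK-126 (0.40, SE 0.21, adjusted p = 0.294). It passed only when pair 1 was left out (0.77, adjusted p = 0.0437). Its exons share 853 bases with Flicr on the same strand and 590 bases with Ccdc22 on the opposite strand, so its level is uncertain. The summed FOXP level was 133 ± 5.97 CPM in DMSO cultures and 147 ± 10.8 under GSK-126.

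Among the other abundant forkhead genes, Foxk2, a metabolic regulator, had 111, 121 and 116 CPM with DMSO and 113, 113 and 104 CPM with GSK-126 (log2 fold change -0.08, SE 0.08, adjusted p = 0.620). Foxj3 had 79.1, 113 and 81.1 CPM with DMSO and 71.9, 89.8 and 84.0 CPM with GSK-126 (-0.14, SE 0.09, adjusted p = 0.38). In both the groups overlapped. Group means were 73.0 and 78.6 CPM for Foxk1, 76.8 and 81.8 CPM for Foxc1, 43.1 and 48.5 CPM for Foxd1, and 53.8 and 43.9 CPM for Foxj2 (DMSO first), none called.

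Foxm1, which drives mitotic genes, had means of 21.1 CPM in DMSO cultures and 22.4 under GSK-126, and 0 of 15 tested FOXM1 target genes were called (median log2 fold change 0.12). Foxj1, the master gene of motile cilia, had means of 26.8 ± 8.20 and 24.5 ± 6.60 CPM, and its sign reversed when pair 3 was left out. Of 14 motile cilium genes 0 were called, with 11 of 14 below 0 and a median of -0.20. Foxc2 had means of 12.8 and 11.6 CPM and Foxl2 of 4.45 and 5.61 CPM.

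The largest positive fold changes belonged to low forkhead genes near the filter. Foxd2 had counts of 18, 7 and 23 with DMSO and 25, 21 and 24 with GSK-126, or 2.08, 0.653 and 2.00 CPM against 1.89, 2.26 and 3.21 CPM (log2 fold change 0.69, SE 0.45, adjusted p = 0.412). Foxf2 had 4.61, 3.08 and 4.17 CPM with DMSO and 5.53, 4.85 and 7.61 CPM with GSK-126 (0.59, SE 0.27, adjusted p = 0.205). Foxf2 was the only member whose GSK-126 libraries all lay above its DMSO libraries, a pattern shown by 4.72% of all tested genes.

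Foxq1 had 1.73, 1.21 and 2.26 CPM with DMSO and 2.12, 2.48 and 3.07 CPM with GSK-126 (0.57, SE 0.41, adjusted p = 0.459), and 3200 of its 4843 exon bases are shared with A530084C06Rik on the other strand. Foxs1, a gene of pericytes, had means of 3.07 and 4.43 CPM and Foxf1 of 1.20 and 1.71 CPM. None of these was called. Foxq1, Foxf2 and Foxc1 lie in a row on chromosome 13, with gaps of 64839 and 175229 bases, and all had positive fold changes in all 3 pairs. In the row Foxf1, Foxc2 and Foxl1 on chromosome 8, with gaps of 28026 and 9044 bases, Foxc2 was lower in all 3 pairs (log2 fold change -0.15, SE 0.17, adjusted p = 0.669), Foxf1 had pair log2 ratios of 1.78, -0.11 and 0.19, and Foxl1 was not tested. Over the set, 9 of 38 members were higher in all 3 pairs (23.7%, against 19.5% of all tested genes) and 7 were lower in all 3 (18.4%, against 22.8%).

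**Figure D3:**
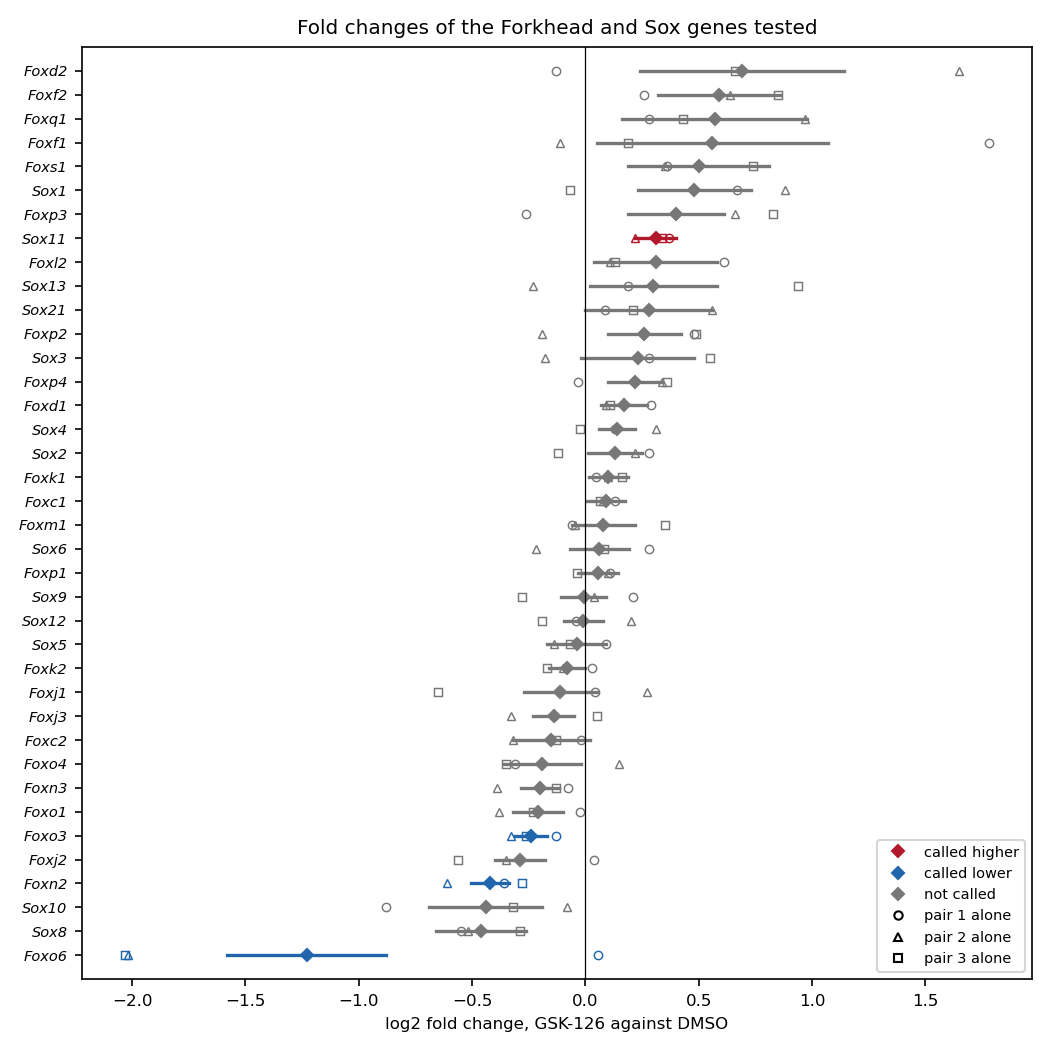
Fitted log2 fold change of each tested member (diamond) with its standard error (bar), and the log2 ratio of each pair alone (open symbols). Red marks the gene called higher, blue the 3 called lower, grey the 34 not called. Fitted values run from -1.23 for Foxo6 to 0.69 for Foxd2, and the pairs of low genes lie far apart.

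The SOXC genes Sox4, Sox11 and Sox12 act in differentiating neurons and were the most abundant Sox group. Sox11 (chr12:27334264-27342574, minus strand), an intronless gene, had 65.9, 49.2 and 57.7 CPM with DMSO and 85.1, 57.3 and 72.9 CPM with GSK-126. Each pair was higher with GSK-126, with log2 ratios of 0.37, 0.22 and 0.34, although GSK-126 replicate 2 lay below DMSO replicates 1 and 3. Sox11 rose by a log2 fold change of 0.31 (SE 0.091, adjusted p = 0.0386), and its adjusted p was 0.953 without the block. The call was lost with DESeq2 with the block (adjusted p = 0.101), without pair 1 (0.239) and without pair 3 (0.126).

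Sox4 had 215, 148 and 208 CPM with DMSO and 235, 184 and 204 CPM with GSK-126 (log2 fold change 0.14, SE 0.078, adjusted p = 0.328). Sox12 had 110, 105 and 105 CPM with DMSO and 107, 120 and 91.9 CPM with GSK-126 (-0.0092, SE 0.086, adjusted p = 0.968), and its sign turned with the scaling. Neither was called. The difference between Sox11 and the other SOXC genes was not tested.

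Of 12 SOXC target genes of neurons 2 were called higher and 4 lower, with a median log2 fold change of -0.18. Over all tested genes the shares were 3.35% and 5.09%. Neurod1, a transcription factor of granule neurons, fell by 0.47 on the log2 scale (adjusted p = 1.1e-04), Map2, which encodes a dendritic microtubule protein, by 0.32 (adjusted p = 0.00446) and Elavl3, which encodes a neuronal RNA-binding protein, by 0.29 (adjusted p = 0.0104). Tubb3, the tubulin of young neurons, rose by 0.40 (adjusted p = 0.0234), a call that DESeq2 with the block did not make (adjusted p = 0.381). Dcx, the other target called higher, rose by 0.24 (adjusted p = 0.0370). DESeq2 with the block also called Dcx (adjusted p = 0.0362). Whether Sox11 had a part in any of these changes was not tested.

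The SOXB1 genes mark neural progenitors, and Sox2 also marks astroglia. Sox2 had 45.9, 19.7 and 31.2 CPM with DMSO and 55.6, 22.9 and 28.7 CPM with GSK-126 (log2 fold change 0.13, SE 0.12, adjusted p = 0.584). Sox1 had 6.58, 2.7 and 6.87 CPM with DMSO and 10.5, 5.06 and 6.54 CPM with GSK-126 (0.48, SE 0.25, adjusted p = 0.278). Both were lower in replicate 2 than in the other numbers of the same group, and the groups overlapped.

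Sox3 had 6.34, 4.75 and 4.26 CPM with DMSO and 7.73, 4.20 and 6.28 CPM with GSK-126 (0.23, SE 0.25, adjusted p = 0.663). None of the 3 was called. Sox21 of the SOXB2 group had means of 4.07 and 4.87 CPM. Of 13 tested SOXB1 partners and progenitor genes 1 was called higher and 1 lower (median -0.07), against 3.35% and 5.09% of all tested genes. The POU factor gene Pou3f3 rose by 0.38 on the log2 scale (adjusted p = 0.0194). The chromatin remodeller gene Chd7 fell by 0.44 (adjusted p = 4.8e-04). DESeq2 with the block called only Chd7 (adjusted p = 0.0541 for Pou3f3).

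The SOXE genes act in glia. Sox9, a gene of astroglia, had 91.6, 41.7 and 84.4 CPM with DMSO and 106, 42.8 and 69.7 CPM with GSK-126 (log2 fold change -0.0068, SE 0.099, adjusted p = 0.980), and its sign turned with the scaling and without the block. Sox8 had 13.8, 6.99 and 9.99 CPM with DMSO and 9.40, 4.85 and 8.15 CPM with GSK-126 (-0.46, SE 0.20, adjusted p = 0.180). Sox8 was lower in every pair but was not called, and it shares 329 exon bases with 2810468N07Rik.

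Sox10, the oligodendrocyte lineage gene, had 9.69, 10.7 and 2.69 CPM with DMSO and 5.23, 10.1 and 2.14 CPM with GSK-126 (-0.44, SE 0.25, adjusted p = 0.322). Replicate 3 was lowest and replicate 2 highest in both groups. Of 14 tested SOXE target genes of glia 2 were called higher and 1 lower (median 0.054), against 3.35% and 5.09% of all tested genes. S100b and Mbp, genes of astroglia and of myelin, rose by 0.56 and 0.28 on the log2 scale (adjusted p = 0.00244 and 0.0408), and the collagen gene Col9a1 fell by 0.74 (adjusted p = 0.0100). DESeq2 with the block did not call Mbp (adjusted p = 0.0555).

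The SOXD genes were not called: Sox5 had means of 27.7 and 26.8 CPM, Sox6 of 29.4 and 31.4 CPM and Sox13 of 4.61 and 5.69 CPM. Sox5 shares 1330 exon bases with the antisense gene Sox5os1. In the other HMG-box family, the TCF and LEF genes with their WNT partners and targets, 0 of 9 tested genes were called (median -0.048).

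Many members differed between replicate numbers. The median range between the 3 numbers was 0.55 on the log2 scale over the tested members and 0.41 over all tested genes. Replicate 2 lay below the mean of replicates 1 and 3 by 1.04 for Sox9, 1.02 for Foxl2, 0.99 for Sox1, 0.87 for Sox2, 0.81 for Foxd2 and 0.79 for Sox8 on the log2 scale, averaged over both groups. It lay above that mean by 1.31 for Sox10 and 0.46 for Foxn2.

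**Figure D4:**
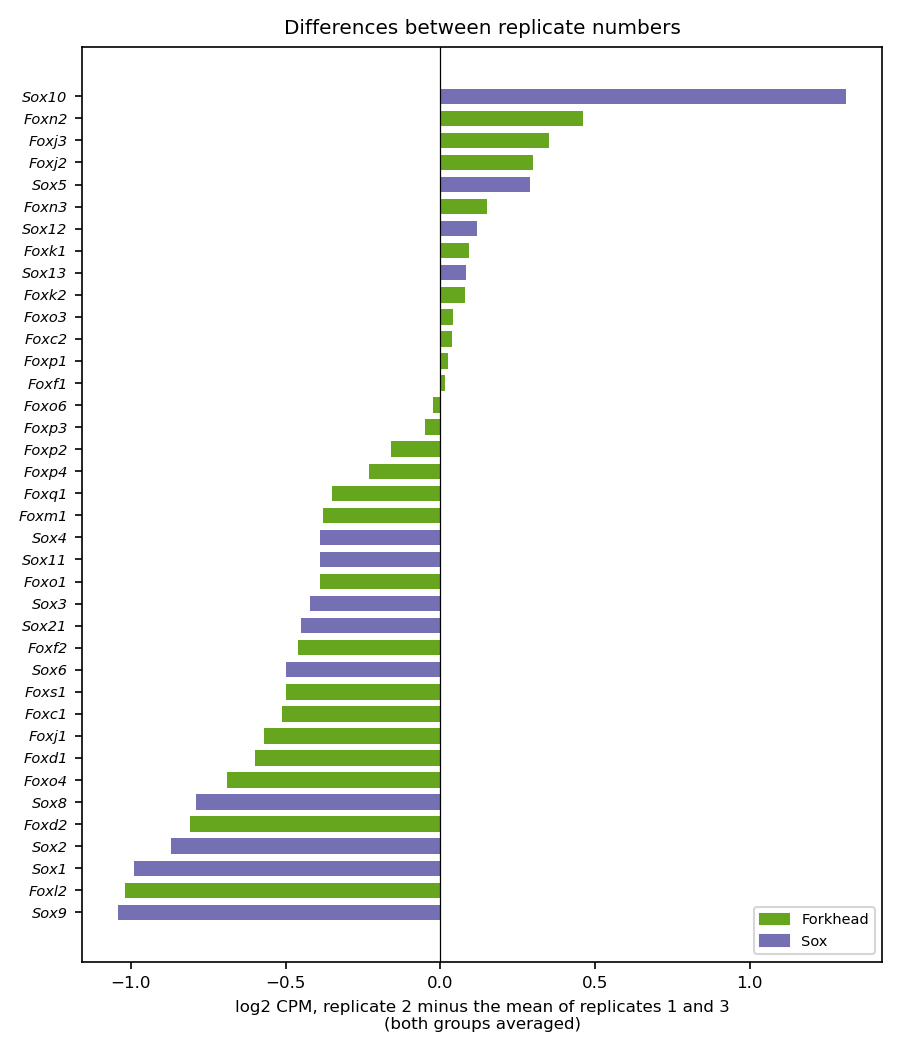
Log2 CPM of replicate 2 minus the mean of replicates 1 and 3, averaged over DMSO and GSK-126, for each tested member. Green bars are Forkhead genes and purple bars Sox genes. Bars run from -1.04 for Sox9 to 1.31 for Sox10, and the most negative after Sox9 are Foxl2, Sox1, Sox2, Foxd2 and Sox8.

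Marker genes of cell types moved with the same numbers. The summed level of 8 astroglia markers, all detected, was 7252, 2345 and 4039 CPM with DMSO and 7621, 2238 and 4012 CPM with GSK-126, lowest in replicate 2 in both groups as for Sox2 and Sox9. The summed level of 9 granule neuron markers was 4237, 6600 and 4965 CPM with DMSO and 3404, 5257 and 3907 CPM with GSK-126, highest in replicate 2 as for Foxn2. The summed level of 8 oligodendrocyte lineage markers was 778, 442 and 627 CPM with DMSO and 795, 515 and 714 CPM with GSK-126, lowest in replicate 2, where Sox10 was highest. Granule neuron markers were thus present, in keeping with the label, beside markers of other cells: Gfap of astroglia was at 787 to 3300 CPM. The summed level of 7 mural cell and fibroblast markers was 6073 ± 1024 CPM with DMSO and 6949 ± 818 with GSK-126.

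Markers also differed with treatment. The shares to set beside each list are 3.35% of all tested genes called higher and 5.09% lower (median log2 fold change -0.0056). Of 9 granule neuron markers 0 were called higher and 5 lower (median log2 fold change -0.31). Rbfox3 was among those called lower, at 418 ± 125 CPM in DMSO cultures and 280 ± 102 under GSK-126. Foxn2, Foxo3 and Foxo6 were also called lower, Foxo6 without a fall in pair 1 (log2 ratio 0.056). Of 7 markers of mural cells and fibroblasts 3 were called higher and 0 lower (median 0.22), with Acta2 at 401 ± 112 and 531 ± 92.1 CPM. Of 7 markers of interneurons and Purkinje cells 0 were called higher and 3 lower (median -0.32). Fitted values were positive for 2, Calb1 (0.45, adjusted p = 0.317) and Car8 (0.30, adjusted p = 0.812), and negative for 5. Slc32a1, Gad1 and Gad2, genes of GABA transport and synthesis, fell by 0.72, 0.32 and 0.52 on the log2 scale (adjusted p = 0.00150, 0.0163 and 0.0266), and DESeq2 with the block did not call Gad2 (adjusted p = 0.103). Of 4 tested progenitor markers 1, Ccnd2, was called higher, and Atoh1 had 0 to 7 counts. The part of these markers in the results was not tested, and in bulk RNA fewer cells of a type and less RNA per cell cannot be told apart.

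In the other marker lists 2 of 8 astroglia, 1 of 8 oligodendrocyte lineage and 1 of 6 microglia markers were called higher and 0 lower. Over all tested genes 3.35% were called higher and 5.09% lower. Medians of these 3 lists were 0.16, 0.17 and 0.13, with 5, 6 and 6 fitted values positive. DESeq2 with the block called 1, 0 and 1 of them. Of 5 tested endothelial and 6 ependyma and choroid plexus markers 0 were called in either direction (medians 0.018 and -0.084). Pax2 of interneurons had means of 13.9 and 12.9 CPM and Ttr of the choroid plexus 331 and 335 CPM. The lists share genes with each other, Neurod1, S100b and Mbp among them.

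The silent members were Foxa2, Foxa3, Foxb2, Foxd3, Foxd4, Foxe3, Foxi1, Foxi2, Foxi3, Foxn1, Foxr1 and Sox14, 11 Forkhead genes and 1 Sox gene. Many of them have their known roles outside the cerebellum: FOXA2 and FOXA3 in endoderm, FOXD3 in the neural crest, FOXI1 in kidney and inner ear and FOXN1 in thymus epithelium. All had 0 counts in 3 DMSO and 3 GSK-126 libraries. At a limit of 3 counts, which covers counting error only, this allows up to 0.0971 CPM over the DMSO libraries and 0.10 CPM over the GSK-126 libraries. Silent genes are defined by 0 counts in both groups, so a gain with GSK-126 could not appear among them, the CpG-rich Sox14 included. A member with 0 counts in every DMSO library and a read with GSK-126, such as Foxa1, is placed below the filter instead.

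Members with counts below the filter had between 0 and 20 counts per library. Foxa1 and Foxn4 had 1 count in all, in GSK-126 replicate 3, and Sox17 had 1 count in DMSO replicate 2. Foxb1, Foxe1, Foxh1, Foxl1, Foxr2, Sox15, Sox18 and Sox30 had between 0 and 7 counts per library.

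Sox7 was the highest of them, with 3, 8 and 10 counts with DMSO and 9, 20 and 15 counts with GSK-126. With no filter its log2 fold change was 1.28 (SE 0.64, adjusted p = 0.345), which was not called. Sox7, Sox17 and Sox18 form the SOXF group of endothelial cells, and 0 of the 5 tested endothelial markers were called (median log2 fold change 0.018). Cdh5 had means of 51.5 CPM with DMSO and 45.6 with GSK-126, and the untested Cldn5 had 0 to 12 counts per library. No fold change is given for the other members below the filter, which had at most 7 counts in a library.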

How the data were processed

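RNA of CGN cultures, 3 DMSO and 3 GSK-126 libraries, was poly-A selected and sequenced in paired ends by the authors. Per the labels and methods, reads were trimmed with Trimmomatic 0.38, aligned with STAR 2.7.2b to mm10 and counted on exons with HTSeq, and the authors deposited raw counts per gene, with no normalization. The methods name a Gencode annotation of GRCm38.p4, whose release number and the strand setting are not given in the sources used here. The 55341 symbols equal those of GENCODE M21, which gave coordinates and exon lengths. Rows naming no gene held 58.7% to 60.7% of the listed reads and were left out.

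Counts were normalized with TMM and filtered with filterByExpr, and tested with edgeR 4.0.16 (glmQLFit and glmQLFTest, replicate number as block, Benjamini-Hochberg adjustment over all tested genes, threshold 0.05) in R 4.3.3. The script was tested on simulated data. DESeq2 1.42.0, other scalings and filters, no block and leaving out each pair were the alternatives. Deviations from group means correlated at r of 0.47 to 0.62 between libraries with the same replicate number, and at 0.0035 or less otherwise, so the numbers pair the libraries. No library was a copy of another (lowest chi-square per degree of freedom 8.40). The members and gene lists were chosen with earlier results of these data known.

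Values per library are given for called members, the 5 Forkhead and 5 Sox genes with the highest mean CPM, the 3 largest log2 fold changes in each direction, and tested FOXO, FOXP, SOXB1, SOXC and SOXE genes. From other lists up to 4 genes with the smallest p and the defining marker of each cell type could be named, and Dcx, Calb1 and Car8 were added. Pair log2 ratios used a prior count of 1. Promoters are from RefSeq, GRCm38.p6. A few genes are not reported here.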

Additional observations from a re-analysis of the deposited data

How the results depend on the processing

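Directions of 31 of the 38 tested members held under every alternative that gave them a value, which was 10 of the 11 for Foxd2 and Foxf1. The other 7 reversed under at least 1, all uncalled. Over the fits that left out a pair, the log2 fold change was -0.28 to 0.15 for Foxj1, -0.052 to 0.17 for Foxm1, -0.017 to 0.57 for Sox13, -0.088 to 0.015 for Sox5, -0.052 to 0.19 for Sox6, -0.11 to 0.081 for Sox12 and -0.11 to 0.13 for Sox9. Sox12 was 0.0026 with DESeq2 without the block, 0.025 with upper-quartile or total count scaling, 0.006 with no filter, and 0.0083 with at least 10 counts in every library. Sox9 was 0.008 without the block in edgeR and 0.006 in DESeq2, 0.027 and 0.025 with upper-quartile and total count scaling, 0.0074 with no filter and 0.0093 with at least 10 counts in every library. Foxj2 was called only without pair 1 (-0.44, adjusted p = 0.0440).

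Without the replicate block, edgeR called 0 genes in any set (smallest adjusted p 0.386), with a biological coefficient of variation of 24.0% against 9.74% with it. DESeq2 without the block called 20 genes higher and 1 lower over all genes, and 0 members and 0 list genes in either direction. DESeq2 with the block called 369 of all genes higher, 0 members higher and 1 lower, and 7 list genes higher where edgeR called 12. With no filter 19 list genes were called higher. Leaving out a pair gave 337 to 558 genes called higher (561 with all) and 496 to 719 lower (851 with all), 0 to 1 members higher and 1 to 3 lower, and 6 to 13 list genes higher and 11 to 13 lower (17 with all). Fewer genes were called lower than higher under upper-quartile scaling (698 and 727) and total counts (707 and 714). Foxn2 alone was called in every fit with the block. Why calls were lost was not tested. Depth limits members under 10 CPM.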
